A study of Danio rerio with 4 samples.

Results

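The semaphorin, Eph, Slit and netrin guidance genes were examined in zebrafish embryonic hearts with and without forced bmp2b expression. They were chosen by name: every gene whose symbol in the array's annotation begins with sema, plxn, nrp, epha, ephb, efna, efnb, slit, robo, ntn (each with its member number or letter) or unc5. This gave 81 genes with 138 probes, of 15528 named genes and 43603 probes on the array. The rule used names only, but it was set with earlier results of these data known. One of the 81, unc50, matches by spelling only, since it encodes a membrane protein of the Golgi and not a netrin receptor, and it is kept apart from the unc5 receptors below.

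RNA came from hearts that were dissected by hand at 21 to 23 hours post fertilization (hpf) and pooled. The Bmp2b group carried the transgene Tg(hsp70l:bmp2b)fr13, which places bmp2b, for a secreted BMP ligand, under the promoter of a heat shock gene (2 arrays). The wild-type (WT) group carried no transgene according to its label (2 arrays). Both groups were heat-shocked at 18 hpf for 30 min at 37 °C. The promoter answers heat throughout the embryo, so the ligand was not made by the heart alone, and the pools came from an unstated number of embryos.

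Guidance proteins steer migrating cells and growing axons by attraction or repulsion. Class 3 semaphorins are secreted and bind neuropilins, which signal through plexins. Ephrins are membrane-bound ligands of the Eph receptor tyrosine kinases and signal at cell contacts in both directions. Slits are secreted ligands of Robo receptors, and netrins bind Dcc, neogenin and Unc5 receptors. Besides their roles in axons, several of these genes act in vessels and heart: Plexin D1 and Ephrin B2 with EphB4 in the endothelium, neuropilins as co-receptors of Vegf, and Slit and Robo genes in the migration of heart cells.

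The arrays differed in brightness and in how closely replicates agreed. On the Bmp2b arrays 40.6% and 60.9% of guidance probes lay above background, against 71.0% and 69.6% on the WT arrays, and over all probes the shares were 34.1% and 46.2%, against 57.4% and 57.1%. A probe counted as above background where its raw intensity exceeded 2 times the 5th percentile of its array. The WT arrays differed by a root mean square of 0.0711 log2 units over 25 bright probes with 5 spots each, less than the 0.118 that the spread between spots gives, whereas the Bmp2b arrays differed by 0.896 against 0.120. The WT arrays may therefore be a repeat of 1 sample, and results with their mean counted as 1 sample are given beside the main test. Both Bmp2b arrays shared slide 3 and the WT arrays lay on slides 1 and 2, so genotype and slide cannot be told apart. The bmp2b transcript itself had normalized log2 intensities of 13.74 and 14.03 on the Bmp2b arrays, against 7.86 and 8.09 on the WT arrays (log2 fold change 5.91 ± 0.17, SE), in keeping with the labels. All 14 heart muscle markers on the array lay above background on each of the 4 arrays. Of these 1 rose, 4 fell and 9 did not pass, with a median log2 fold change of -0.44. Of all genes tested, 9.0% were called higher and 8.22% lower. Markers of other tissues were present too, and they differed between the Bmp2b arrays. The 19 neural markers had a median log2 change against WT of -0.98 on Bmp2b array 1 and 1.31 on Bmp2b array 2. The 13 tested epidermal markers stood at 0.12 and 1.76, 3 of them rose and 0 fell, and their linear levels summed to 314749 and 323221 in Bmp2b, against 136959 and 141540 in WT. For 7 tested neural crest markers the medians were 0.20 and 2.18. The part of these tissues in the results below was not tested.

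Of the 81 guidance genes, 56 had at least 1 probe above background on at least 2 arrays and were tested. By its brightest tested probe, each gene gave 1 value. In Bmp2b hearts 7 genes rose, 2 fell and 47 did not pass at an adjusted p under 0.05 (limma, Benjamini-Hochberg over all probes). The genes that rose were the neuropilins nrp2a and nrp2b, the plexin gene plxnd1, the semaphorin gene sema3d, the ephrin genes efna5a and efnb1 and the receptor gene ephb4b. Those that fell were the receptor gene ephb4a and the ligand gene slit2. The called share, 16.1%, was close to the 17.2% of all 11376 genes tested (9.0% higher and 8.22% lower), so the guidance genes were not called more often than other genes. For 17 genes both Bmp2b arrays lay above both WT arrays, and for 17 below. This is 60.7% of the 56, against 68.6% of all genes (34.9% above and 33.8% below). The median log2 fold change was -0.03 over the guidance genes and 0.01 over all genes tested. All 56 genes lay above background on both WT arrays, while 38 did so on both Bmp2b arrays, 13 on 1 of them and 5 on neither. The raw cutoff was 50 and 48 on the Bmp2b arrays, against 33 and 32 on the WT arrays. The same counts over all genes are not given, so these are not read as loss of expression.

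The calls rest on the agreement of the WT arrays and on scaling between arrays of unequal brightness. With the WT mean as 1 sample, 0 of the 56 guidance genes passed in limma (12 at an unadjusted p under 0.05), and 0 passed with a variance prior that follows intensity (11 at an unadjusted p under 0.05), a fit that called 0.853% of all genes (0.448% higher and 0.404% lower) and 0.773% of all probes (0.311% higher and 0.462% lower). The lowest adjusted p among guidance genes in that last fit was 0.0693, for nrp2a. Without the prior that follows intensity, almost no probe of the whole array passed, and that of bmp2b did not. That fit therefore says nothing about guidance genes in particular. The share of all genes at an unadjusted p under 0.05 is not given. Counts at that cutoff, in this paragraph and below, are therefore not set against other genes. Under all 5 other ways of scaling, each of the 9 called genes kept its direction. When arrays were scaled to their 75th percentile, 1 guidance gene rose (nrp2a) and 2 fell (ephb4a and slit2), against 7 and 2 in the main fit, and over all probes 493 were higher and 378 lower, against 1668 and 2208. That scaling moved the median of all genes by 0.12 log2 units. In raw intensity, before any scaling, Bmp2b array 1 was dimmer than both WT arrays for each of the 7 genes that rose, and 0 of the 7 had both Bmp2b arrays above both WT arrays. Among all 1024 genes called higher, 128 did. Both Bmp2b arrays lay below both WT arrays in raw intensity for 40 of the 56 guidance genes and 8948 of all 11376 genes tested. In a bulk sample, fewer cells of a type and less RNA per cell cannot be told apart.

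**Figure D1:**
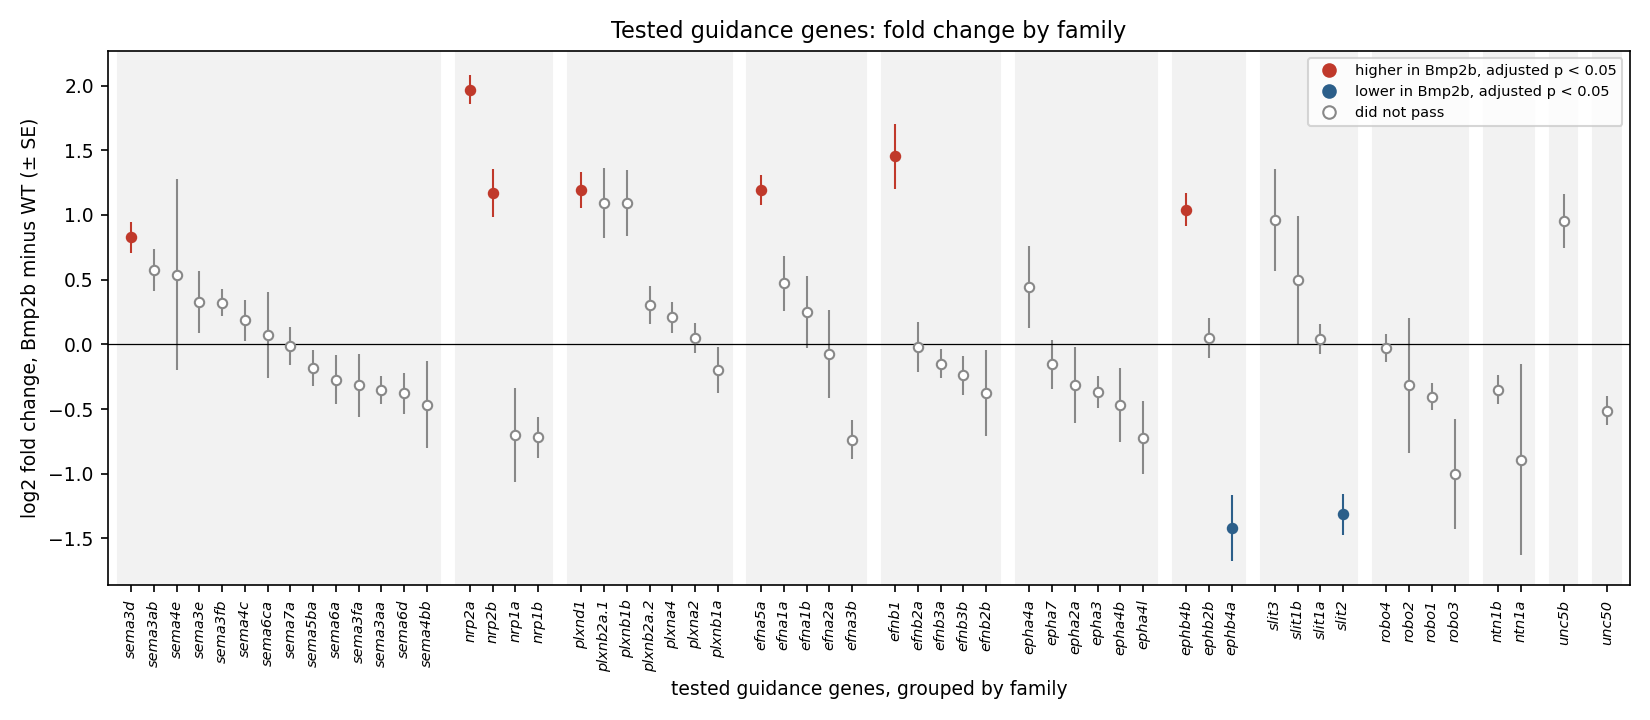
Log2 fold change (Bmp2b minus WT, with SE from the limma fit over 2 arrays in each group) of the 56 tested guidance genes, grouped by family along the horizontal axis. Red points passed upward (7 genes), blue points passed downward (2 genes) and open points did not pass (47 genes), among them 5 below background on both Bmp2b arrays, whose points are not read as folds.

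Neuropilins gave the largest rise among the guidance genes. They are single-pass co-receptors that bind class 3 semaphorins and Vegf. nrp2a had normalized log2 intensities of 10.01 and 10.09 on the Bmp2b arrays, against 8.04 and 8.12 on the WT arrays. The Bmp2b arrays lay close together and well above both WT arrays. Its level was 3.91-fold higher (log2 fold change 1.97 ± 0.11, SE; limma adjusted p = 0.0144), and in raw intensity it read 327 and 1010 on the Bmp2b arrays, against 385.5 on the dimmer WT array. The second neuropilin-2 gene, nrp2b, stood at 12.85 and 12.45 in Bmp2b, against 11.39 and 11.57 in WT. It rose 2.25-fold with no overlap between the groups (adjusted p = 0.0337). Its raw intensities, 2528 and 5204 in Bmp2b against 4685.5 and 5253.5 in WT, did overlap. The neuropilin-1 genes did not pass. nrp1a read 10.59 and 11.58 in Bmp2b, against 11.76 and 11.80 in WT (log2 fold change -0.70 ± 0.36, adjusted p = 0.245), with Bmp2b array 1 far below the other 3 arrays. nrp1b read 7.04 and 6.76, against 7.71 and 7.52 in WT (-0.72 ± 0.16, adjusted p = 0.0573), and lay below background on 1 Bmp2b array. The change of nrp2a exceeded that of nrp1a by 2.67 log2 units, and the change of nrp2b exceeded that of nrp1b by 1.89. These pairs were picked after their values were seen, and an exact two-sided permutation test over the 4 arrays gave p = 0.333 for each, the smallest it can give.

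Among plexins, the signalling receptors of semaphorins, 1 of 7 tested genes rose and 6 did not pass, and 6 of the 7 had a positive log2 fold change. Of all genes tested, 9.0% were called higher and 8.22% lower, with a median log2 fold change of 0.01. plxnd1 encodes the endothelial plexin through which Sema3e acts. Its probe was bright on every array, at 15.09 and 14.84 in Bmp2b, against 13.80 and 13.75 in WT. Both Bmp2b arrays stood above both WT arrays, a 2.29-fold rise (log2 fold change 1.19 ± 0.14, adjusted p = 0.0228). In raw intensity plxnd1 read 13052 and 26737 on the Bmp2b arrays, against 24748 and 23701 on the WT arrays. Of 15 general endothelial markers 0 rose, 1 fell (sox18) and 14 did not pass (6 at an unadjusted p under 0.05). For 7 both Bmp2b arrays lay below both WT arrays, and for 0 above, where 33.8% of all genes lay below and 34.9% above. The median log2 fold change of the 15 markers was -0.38. Their linear levels summed to 127573 and 99969 on the Bmp2b arrays, against 132236 and 135046 on the WT arrays. 2 of the 15, nfatc1 and sox18, lay below background on both Bmp2b arrays, and the part of endothelium in the plxnd1 result was not tested.

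The B-type plexins plxnb1b and plxnb2a.1 had values near the threshold. plxnb1b read 9.11 and 9.77 in Bmp2b, against 8.31 and 8.39 in WT (log2 fold change 1.09 ± 0.255, adjusted p = 0.0621). plxnb2a.1 read 9.10 and 8.39, against 7.64 and 7.66 in WT (1.09 ± 0.27, adjusted p = 0.0687), and its 3 tested probes all had positive values, of 0.47 to 1.09. For both genes the groups did not overlap, but the Bmp2b arrays were 0.66 and 0.71 log2 units apart. These 2 were picked after their values were seen. On the log2 scale plxna2 differed by 0.05 ± 0.12 and plxna4 by 0.21 ± 0.12 (adjusted p = 0.792 and 0.273), and both signs turned under other scalings. plxnb1a lay below background on both Bmp2b arrays, so no fold is given for it.

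Of 25 semaphorin genes on the array, 14 were tested, of which 1 rose, 0 fell and 13 did not pass (9.0% of all genes were called higher). The gene that rose was sema3d, for a secreted class 3 ligand that guides neural crest cells and axons in zebrafish. It read 7.49 and 7.33 on the Bmp2b arrays, against 6.59 and 6.58 on the WT arrays. The groups did not overlap, and sema3d was 1.78-fold higher (log2 fold change 0.83 ± 0.12, adjusted p = 0.0295). The probe was dim, with raw intensities of 59.5 and 117 in Bmp2b against 82.5 and 77 in WT, near the background limits of 50 and 48 on the Bmp2b arrays and 33 and 32 on the WT arrays. Neural crest is a tissue known to make class 3 semaphorins. Its markers had a summed linear level of 6330 and 10407 in Bmp2b, against 1917 and 1949 in WT. Their median log2 change against WT was 0.20 on Bmp2b array 1 and 2.18 on Bmp2b array 2. Of 7 tested, 1 rose (snai2). Both Bmp2b arrays lay above WT for 4 and below for 1 (34.9% and 33.8% of all genes). crestin and ltk lay below background on all 4 arrays, and the part of neural crest in the sema3d result was not tested.

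**Figure D2:**
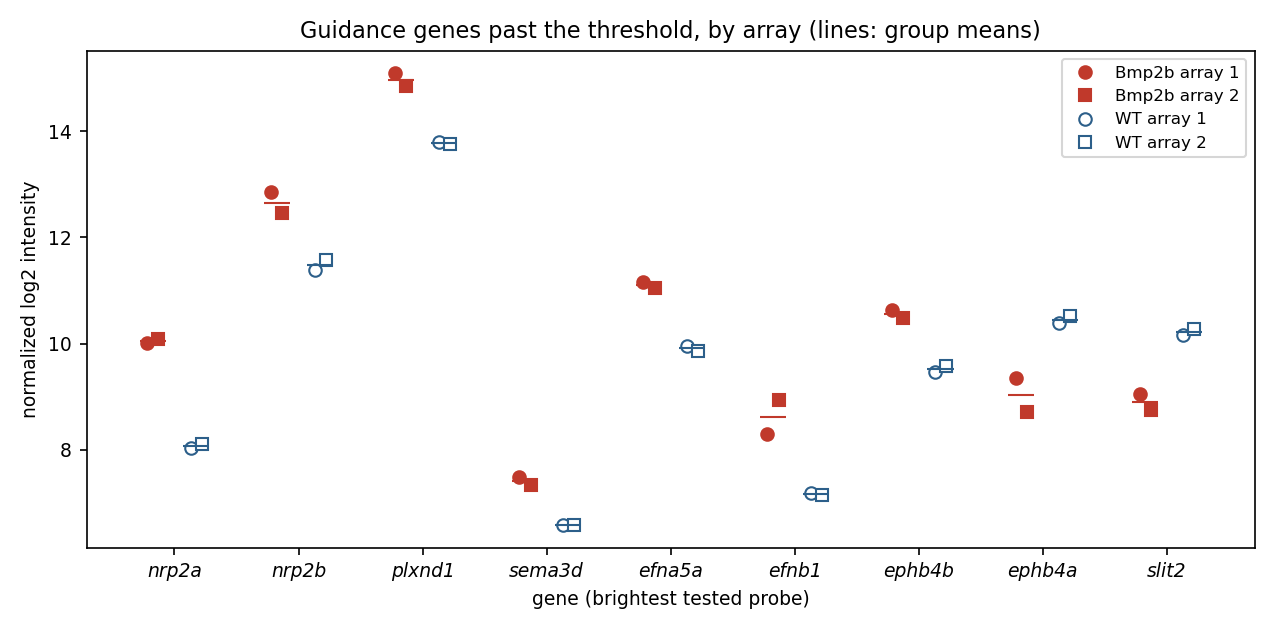
Normalized log2 intensity of the 9 called guidance genes on each of the 4 arrays, with filled red symbols for Bmp2b, open blue symbols for WT and a line at each group mean. The groups do not overlap for any of the 9 genes, which were picked by calls on these same arrays. The widest gaps between Bmp2b arrays are those of ephb4a (9.36 and 8.71) and efnb1 (8.30 and 8.94).

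The other class 3 semaphorins did not pass. sema3ab, a homologue of the repellent Sema3A, read 7.35 and 6.997 in Bmp2b, against 6.58 and 6.62 in WT (log2 fold change 0.57 ± 0.16, adjusted p = 0.0885). Its duplicate sema3aa pointed the other way, at -0.35 ± 0.11 (adjusted p = 0.106). sema3e, the ligand of Plexin D1, read 6.46 and 7.07 in Bmp2b, against 6.48 and 6.39 in WT, so the groups overlapped (0.33 ± 0.24, adjusted p = 0.388). With scaling to the 75th percentile it stood at 1.17 (adjusted p = 0.0627). The probe lay below background on Bmp2b array 1. Other dim probes moved upward under that scaling too, such as those of plxnb2a.2 (from 0.30 to 1.37) and slit1a (from 0.04 to 0.87). sema3fa was not above background on either Bmp2b array, and both sema3c probes failed the filter. Among membrane-bound semaphorins, sema4bb read 12.53 and 11.63 in Bmp2b, against 12.53 and 12.56 in WT (-0.47 ± 0.34, adjusted p = 0.378), where Bmp2b array 2 alone stood low. sema4c and sema5ba lay below background on both Bmp2b arrays. Over class 3 the median log2 fold change was 0.32 (6 genes) and over the other classes -0.10 (8 genes), where the median of all genes was 0.01. These medians include sema3fa, sema4c and sema5ba, whose own values are not read as folds, and the difference between the classes was not tested.

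Of 10 tested ephrin genes 2 rose and 0 fell, and of 9 tested Eph receptor genes 1 rose and 1 fell, where 9.0% of all genes were called higher and 8.22% lower. efnb1 encodes a transmembrane ephrin that both binds Eph receptors and signals back into its own cell. It read 8.30 and 8.94 in Bmp2b, against 7.19 and 7.14 in WT, with both Bmp2b arrays above WT and 0.65 log2 units between them. The rise was 2.74-fold (log2 fold change 1.45 ± 0.25, adjusted p = 0.0380), although raw intensity was 99 and 445 in Bmp2b, against 171 and 155 in WT. efna5a encodes a lipid-anchored ephrin that repels retinal axons. It read 11.16 and 11.05 in Bmp2b, against 9.95 and 9.87 in WT. The groups lay apart and the replicates close together, for a 2.29-fold rise (1.19 ± 0.12, adjusted p = 0.0204). Its raw intensities, 745 and 2002 in Bmp2b against 1690 and 1549.5 in WT, overlapped. efna1b, whose product binds EphA receptors, stood at 0.25 ± 0.28 (adjusted p = 0.559), and efnb3b at -0.24 ± 0.15 (adjusted p = 0.327).

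By the brightest probe of each, the duplicates of the EphB4 receptor gene changed in opposite directions. EphB4 marks venous endothelium in vertebrates and binds Ephrin B2 of arteries. ephb4a read 9.36 and 8.71 in Bmp2b, against 10.38 and 10.53 in WT. Both Bmp2b arrays were below both WT arrays, and ephb4a was 2.67-fold lower (log2 fold change -1.42 ± 0.26, adjusted p = 0.0406). Its raw intensity was 205 and 371 in Bmp2b, against 2317 and 2506 in WT. That order of raw values held for 8948 of all 11376 genes tested, so by itself it does not set ephb4a apart. ephb4b read 10.64 and 10.48 in Bmp2b, against 9.46 and 9.58 in WT, a 2.06-fold rise without overlap (1.04 ± 0.13, adjusted p = 0.0238). In raw intensity ephb4b read 514 and 1341.5 in Bmp2b, against 1181.5 and 1255 in WT, so the groups overlapped before scaling. The change of ephb4b exceeded that of ephb4a by 2.46 log2 units, and the difference between their probes was 1.28 and 1.76 in Bmp2b, against -0.92 and -0.95 in WT. This pair was picked after its values were seen, and the exact two-sided permutation test gave p = 0.333, the smallest possible with 4 arrays.

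The ligand genes efnb2a and efnb2b did not pass. efnb2a was not above background on either Bmp2b array and read 6.14 and 6.13 in WT. Its raw intensities were 29 and 45.5 in Bmp2b, against 38.5 and 36 in WT. The background limits of the Bmp2b arrays, 50 and 48, exceed those WT values, so no fold or bound is given. efnb2b read 6.33 and 7.21 in Bmp2b, against 7.06 and 7.23 in WT, and the groups overlapped (log2 fold change -0.38 ± 0.33, adjusted p = 0.463). It lay below background on Bmp2b array 1. Among the other receptors, ephb2b was nearly equal (0.05 ± 0.15, adjusted p = 0.842) and its sign turned under other scalings. The 6 tested EphA genes had a median log2 fold change of -0.34, and 5 of them were negative, where the median of all genes was 0.01. epha7, a receptor of A-type ephrins, is described with its several probes below.

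Of the 4 tested Slit genes, for secreted ligands that mostly repel, 1 fell, 0 rose and 3 did not pass. Over all genes tested, 8.22% were called lower and 9.0% higher. slit2 read 9.06 and 8.75 in Bmp2b, against 10.16 and 10.27 in WT. Both Bmp2b arrays were below both WT arrays, and slit2 was 2.48-fold lower (log2 fold change -1.31 ± 0.16, adjusted p = 0.0234). In raw intensity it read 166 and 380.5 in Bmp2b, against 1969 and 2096 in WT, an order that held for 8948 of all 11376 genes tested. slit3 read 11.91 and 10.83 in Bmp2b, against 10.495 and 10.33 in WT. The groups did not overlap, but the Bmp2b arrays were 1.08 log2 units apart and the gene did not pass (0.96 ± 0.40, adjusted p = 0.170). The other tested slit3 probe stood at -0.53. slit1a stood at 0.04 ± 0.12 (adjusted p = 0.830), and at 0.87 with scaling to the 75th percentile (adjusted p = 0.177). Its probe lay below background on Bmp2b array 1.

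The Robo receptors of Slits did not pass, and all 4 tested genes had a negative log2 fold change, where the median of all genes was 0.01. robo1 read 11.64 and 11.68 in Bmp2b, against 12.06 and 12.07 in WT (log2 fold change -0.40 ± 0.11, adjusted p = 0.0771). robo3, which in mouse modulates how commissural axons answer Slit, read 7.89 and 9.05 in Bmp2b, against 9.53 and 9.41 in WT (-1.002 ± 0.42, adjusted p = 0.176). robo2 read 6.41 and 7.87, against 7.41 and 7.50 in WT, and robo4, an endothelial member, read 7.28 and 7.35, against 7.37 and 7.32 in WT (-0.32 ± 0.52 and -0.03 ± 0.11, adjusted p = 0.697 and 0.867). The groups overlapped for robo2 and robo4, and the sign of each turned under other scalings. robo2 lay below background on Bmp2b array 1.

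Netrin genes and the netrin receptor unc5b did not pass. ntn1a, for the secreted guidance cue netrin 1, read 5.88 and 7.97 in Bmp2b, against 7.82 on both WT arrays (log2 fold change -0.89 ± 0.74, adjusted p = 0.436). Bmp2b array 1, where the probe lay below background, was thus far below the other 3 arrays. ntn1b stood at -0.35 ± 0.11 (adjusted p = 0.114) and lay just below background on Bmp2b array 1. unc5b, a repulsive netrin receptor that is also made by endothelial cells, read 10.82 and 10.33 in Bmp2b, against 9.59 and 9.66 in WT. The groups did not overlap, but the value fell just short of the threshold (0.95 ± 0.21, adjusted p = 0.0540). The 4 tested unc5b probes ran from -0.23 to 0.95, and 1 of them was negative. unc50 stood at -0.51 ± 0.11 (adjusted p = 0.0548).

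Probes of the same gene often differed in size of change. Of 21 genes with more than 1 tested probe above background on a Bmp2b array, 7 had such probes of both signs. Of all 23 with more than 1 tested probe, 8 had at least 1 that passed, and for 0 of these did all tested probes pass. The called genes plxnd1, sema3d and ephb4b have 1 probe each on the array, so their calls could not be compared between probes. nrp2a had another probe that rose, by 0.90, and 1 tested probe below background on both Bmp2b arrays. Of its 5 probes 3 were tested, and the others lay above background on no array. nrp2b had more probes at 0.85, which passed, and 0.14. 2 slit2 probes fell, by 1.31 and 1.06, and the other tested one was below background on both Bmp2b arrays. For ephb4a the second probe stood at -0.35 and did not pass. That probe lay below background on Bmp2b array 1, and it stood at 0.25 with scaling to the 75th percentile. For efna5a the second tested probe stood at 0.29, and for efnb1 it was below background on both Bmp2b arrays. Of the 4 efna5a probes 2 were tested, and the others lay above background on no array.

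The genes epha7 and plxna4 were called only on probes other than the brightest. 2 epha7 probes fell, by 1.33 and 1.08 (adjusted p = 0.0380 and 0.0234), while the brightest probe and another stood at -0.15 and did not pass. The first of the fallen probes read 9.93 and 9.36 in Bmp2b, against 11.03 and 10.93 in WT. The brightest read 14.10 and 13.65, against 14.03 and 14.02 in WT, so the groups overlapped there. For plxna4, an A-type plexin of class 3 semaphorin signalling, 1 of 3 probes fell, by 0.77 (adjusted p = 0.0424), against 0.21 for the brightest and 0.01 for the other. By probe, 9 guidance probes rose and 6 fell of 95 tested, or 15.8%, against 15.9% of all probes (6.82% higher and 9.03% lower). The probe sequences are not used here, so which transcripts each probe reads is unknown.

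**Figure D3:**
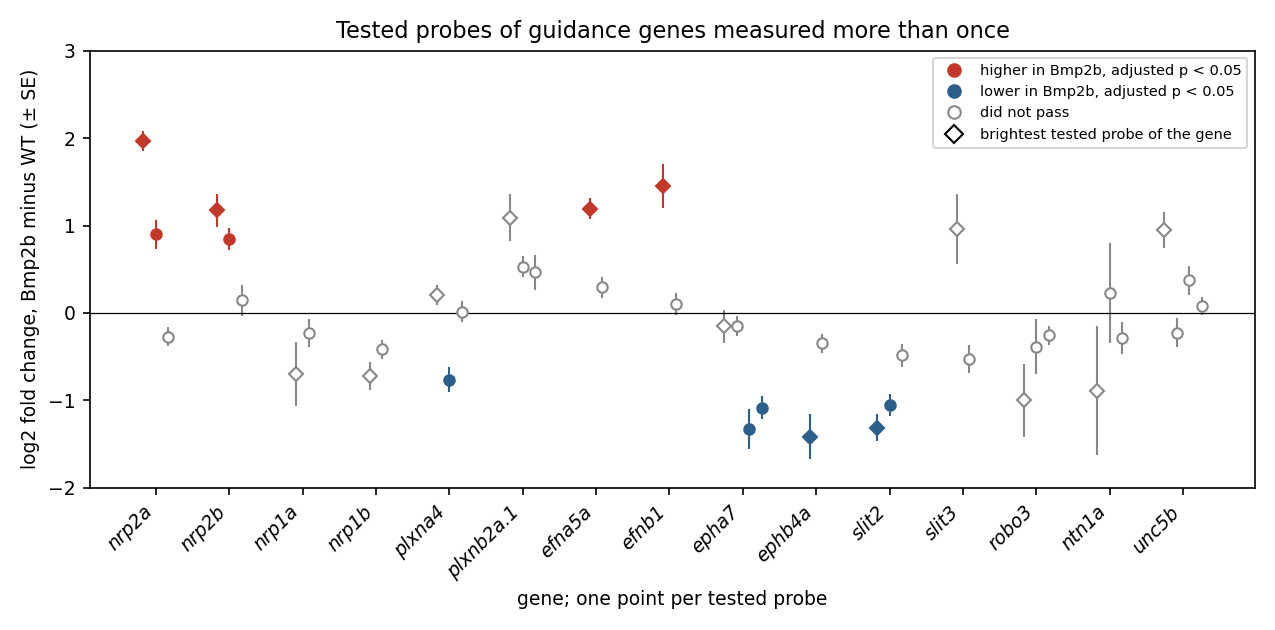
Log2 fold change (Bmp2b minus WT, ± SE) of each tested probe for 15 guidance genes with more than 1 tested probe, with the brightest probe of a gene as a diamond and probes below background on both Bmp2b arrays included. The 4 epha7 probes are all below 0 with unequal sizes, and the probes of nrp2a, plxna4, slit3, ntn1a and unc5b fall on both sides of 0.

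The Bmp2b arrays differed from each other more than the WT arrays did. Over the 56 tested genes the median difference was 0.39 log2 units between the Bmp2b arrays and 0.08 between the WT arrays. 6 genes were more than 2-fold apart between the Bmp2b arrays and 0 between the WT arrays. ntn1a, sema4e, robo2, slit1b and robo3 were higher on Bmp2b array 2, by 2.08, 2.08, 1.46, 1.37 and 1.16 log2 units, and slit3 was higher on Bmp2b array 1, by 1.08. On Bmp2b array 1, ntn1a, sema4e, robo2 and slit1b were not above background, so the sizes of their gaps are uncertain. sema4e, a membrane-bound semaphorin gene, read 7.16 and 9.24 in Bmp2b, against 7.66 and 7.67 in WT, and slit1b read 6.96 and 8.33, against 7.14 and 7.15 in WT, so that for both the WT arrays lay between the Bmp2b arrays. On array 2, 17 of the 19 neural markers were also higher than on array 1, and their summed linear level was 31355 and 46027 in Bmp2b, against 31212 and 32099 in WT. All 19 lay above background on both WT arrays and 15 on both Bmp2b arrays. Array 2 was also higher for 10 of 13 epidermal, 6 of 7 neural crest and 9 of 9 endoderm and yolk markers that were tested. The count was 7 of 13 for skeletal muscle, 3 of 15 for endothelium, 1 of 14 for heart muscle and 1 of 10 for blood. The part of any of these tissues in these values was not tested. Over all 56 genes, 29 were higher on array 2 than on array 1, or about as many as the 50.7% of all genes. The 9 called genes had the same direction on each Bmp2b array, and nrp2a was 1.93 and 2.01 above the WT mean. The calls were made on these same arrays and favour genes whose replicates agree, so this agreement is not separate evidence.

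**Figure D4:**
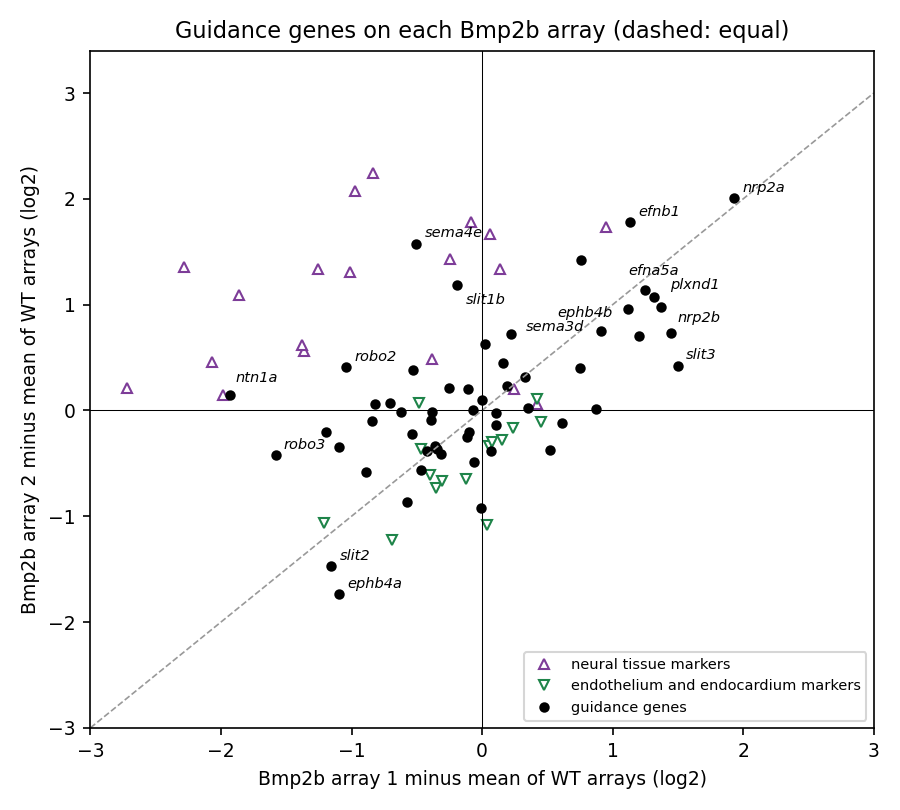
Log2 difference from the mean of the WT arrays on Bmp2b array 1 (horizontal) and Bmp2b array 2 (vertical) for the 56 tested guidance genes (black), with neural (violet) and endothelial (green) markers. The called genes, picked by calls on these same arrays, lie on the same side of 0 on both. Of ntn1a, sema4e, robo2, slit1b and robo3 only robo3 was above background on Bmp2b array 1, and all lie above the dashed line of equal change. Above that line also lie 17 of the 19 neural markers and 3 of the 15 endothelial markers, and other tissue lists are not plotted.

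Genes that work with these ligands and receptors but carry other names were read from lists of co-receptors, adaptors and cytoskeletal effectors. Of 157 listed, 122 were on the array and 105 were tested, of which 9 rose, 4 fell and 92 did not pass. The called share of 12.4% was below the 17.2% of all genes, and the median log2 fold change was 0.16. Among semaphorin and neuropilin partners 3 of 30 rose and 1 fell. dpysl2b, for a CRMP protein that links semaphorin signals to microtubules, read 11.36 and 11.16 in Bmp2b, against 9.68 and 9.70 in WT. The groups lay far apart, for a rise of 1.57 ± 0.13 on the log2 scale (adjusted p = 0.0190). rnd3b, for a small GTPase of the Rnd group, read 9.61 and 8.94 in Bmp2b, against 7.34 and 7.29 in WT (1.96 ± 0.26, adjusted p = 0.0265), and its other tested probe rose too, by 1.80. rnd1a, for a GTPase that binds plexins, rose by 0.65 (another probe, at 0.11, did not pass, and 1 was below background on both Bmp2b arrays). cdk5, for a kinase that acts below Sema3A, fell by 1.28 (adjusted p = 0.0204), with other probes at -0.88, which passed, and 0.49.

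Of 17 netrin partners 2 rose and 0 fell, where 9.0% of all genes were called higher and 8.22% lower. neo1a, for the netrin and Rgm receptor neogenin, read 12.65 and 12.29 in Bmp2b, against 11.49 and 11.44 in WT. Both Bmp2b arrays were higher, by 1.00 ± 0.17 on the log2 scale (adjusted p = 0.0358). ablim1a, for an actin-binding LIM protein, rose by 1.14. Of 16 Slit and Robo partners, sos1, for a Ras and Rac activator recruited to Robo, rose by 0.82, while dag1, for the Slit-binding matrix receptor dystroglycan, and vaspb, for an actin regulator, fell by 0.95 and 1.17. Of 23 Eph and ephrin partners, 0 rose or fell by their brightest probe in limma (9 at an unadjusted p under 0.05). Another probe passed for src (0.64), rgs3a (-0.70) and adam10a (-0.57). In the other partner lists, genes called only on another probe were elmo2 and rras2 (higher) and rras, rnd3a, usp33 and cfl1 (lower). Of 19 shared cytoskeletal effectors 3 rose and 1 fell. The Rac gene rac3a rose by 1.86 ± 0.22 (adjusted p = 0.0231), limk2 rose by 0.70 and wasf2 by 0.93. Other tested probes differed for vaspb (0.50), limk2 (0.01 and -0.11) and wasf2 (-0.20 to 0.86). As with the guidance genes, 0 partner genes passed with the WT mean as 1 sample in either limma fit (11 at an unadjusted p under 0.05 in each).

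**Figure D5:**
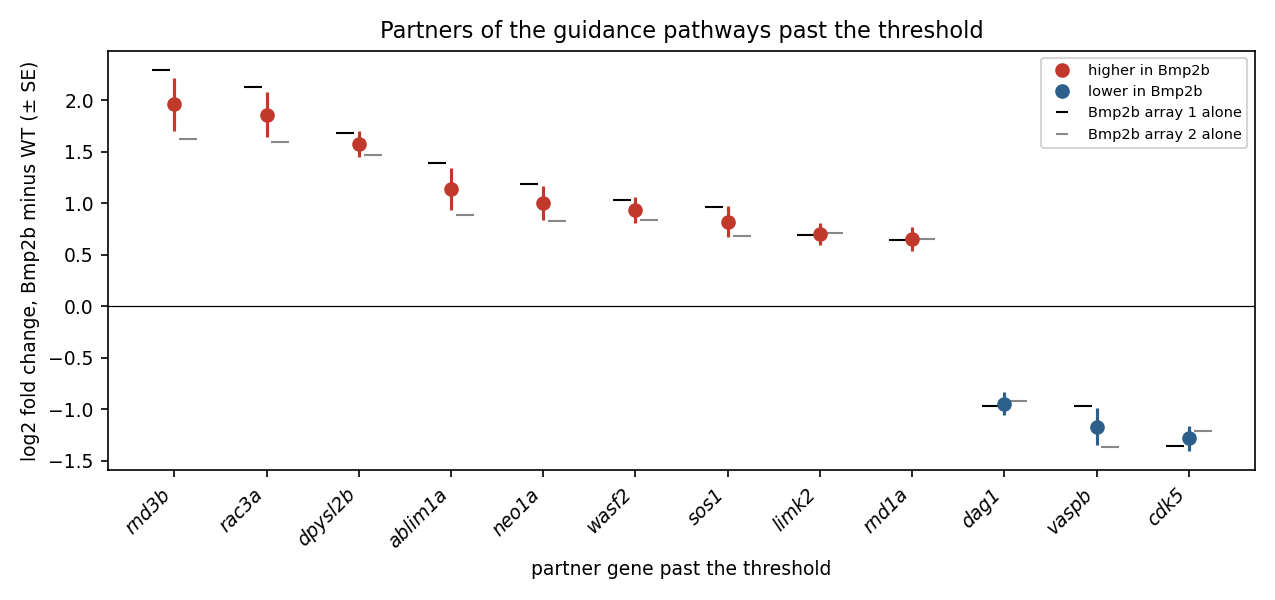
Log2 fold change (Bmp2b minus WT, ± SE) of 12 of the 13 partner genes past the threshold, with short dashes for each Bmp2b array against the mean of the WT arrays. The 9 genes that rose and the 3 plotted genes that fell kept their side of 0 on both Bmp2b arrays, the same arrays on which they were called.

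The remaining 25 guidance genes failed the filter on dim probes. For 20 of them no probe lay above background on any array, and 5 had a probe above it on 1 array (ntn4 and plxna3 on Bmp2b array 2, epha5 and plxna1a on WT array 1, sema6cb on WT array 2). They included 11 semaphorin genes, 4 plexin genes (plxna1a, plxna3, plxnb2a.3 and plxnb2b), the EphA genes epha5 and epha6, the EphB genes ephb1 and ephb2a, the ephrins efna3a and efna5b, the netrins ntn2 and ntn4, and the receptors unc5a and unc5db.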

How the data were processed

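Single-colour (Cy3) Agilent arrays measured total RNA, 200 ng a sample with an integrity number above 8 per the labels, from 2 Bmp2b and 2 WT heart pools. The authors deposited raw median spot intensities, per the file headers, for 43803 spots, and a table of processed intensities whose making the labels and headers do not describe. Agilent Feature Extraction is named in the submitters' processing notes. Raw intensities were corrected by normexp (offset 50), log2-transformed and quantile-normalized, and spots were averaged per probe. Of 43603 probes, 24454 lay above background on at least 2 arrays and were fitted with limma 3.58.1 (lmFit, eBayes, two-sided) in R 4.3.3. The fit was tried on simulated data with equal spread on all 4 arrays. The spread of these arrays was unequal, so that trial does not vouch for the calls. A gene is read by its brightest tested probe. The members and lists were chosen with earlier results of these data known. Named genes are those with a called probe, the highest WT level in each family, a list of heart, vessel and left-right genes, members below background in 1 group only and called partners; other names were picked after their values were seen. The labels number arrays 1 and 2 in each group without naming a shared source, and this number was tried as a block. Nothing says the pools came from separate embryos, so p-values measure the spread between these arrays, which may be technical. Symbols came from the platform's annotation, which can be old (23667 probes named, 19936 unnamed). All 138 guidance probes matched the current gene table with 0 changed symbols. Saturation could not be checked, and the number of arrays limits the precision. The result of 1 called partner gene is not reported here.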

Additional observations from a re-analysis of the deposited data

How the results depend on the processing

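Across 17 alternatives the 9 called guidance genes kept their direction, but not their calls. Under either the WT mean as 1 sample or a random slide effect (correlation set to 0.5), limma called 0 guidance genes, guidance probes or partner genes in either direction (12 and 13 guidance genes at an unadjusted p under 0.05) and, of all probes, 0 higher and 1 lower. With trend and robust as well, the WT mean as 1 sample gave 76 probes higher and 113 lower, and again 0 guidance or partner genes. Leaving out either WT array also gave 0 guidance and partner calls (11 and 12 guidance genes at an unadjusted p under 0.05).

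Scaling to the 75th percentile gave 1 guidance gene higher, 2 and 3 guidance probes higher and lower, 3 and 2 partner genes, 493 and 378 probes of all, and a guidance median of 0.26. From processed intensities scaled this way the counts were 1 gene, 2 and 3 probes, 3 and 1 partners, and 543 and 349 of all, with a median of 0.15. The number of guidance genes lower was 4 with cyclic loess, with quantile-normalized processed intensities and when a gene's tested probes were averaged, which also gave 7 partner genes lower. Shares of all genes called in these fits are not given, so these counts are not set against other genes. The guidance median was 0.0528 with cyclic loess, 0.0489 with probes above background on all 4 arrays and -0.11 with the mean over probes.

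Leaving out 1 array at a time gave 0 to 21 guidance genes higher and 0 to 24 lower, 0 to 29 probes higher and 0 to 41 lower, 0 to 50 partner genes higher and 0 to 27 lower, and 0 to 7462 of all probes higher and 1 to 9565 lower. The high ends came without a Bmp2b array (21 and 15 guidance genes without array 1, 17 and 24 without array 2), so only the WT arrays then supply replicate spread. The guidance median ran between -0.08 and 0.02.

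Reversals concerned genes that had not passed, 19 of 47 under at least 1 other scaling. Among the named genes, with scaling to the 75th percentile they were efna1b (-0.0179), efnb2b (0.28), ephb2b (-0.26), plxna4 (-0.0193), robo2 (0.24) and robo4 (0.27). With processed intensities scaled this way they were efnb2b (0.11), ephb2b (-0.14), plxna4 (-0.15), robo2 (0.27) and robo4 (0.0027). Others were robo2 (0.0949) and robo4 (0.0744) with cyclic loess, ntn1a (0.22) without background correction, plxna2 (-0.0151) and slit1a (-0.0052) with quantile-normalized processed intensities, and ephb2b (-0.25) and plxna4 (-0.18) with the mean over probes. Leaving out 1 array at a time gave ranges across 0 for efna1b (-0.1148 to 0.6135), efnb2b (-0.8172 to 0.0636), ntn1a (-1.9344 to 0.1478), robo2 (-1.0441 to 0.4127), robo4 (-0.0683 to 0.0087), slit1a (-0.0254 to 0.1048), epha7 (-0.3795 to 0.0699), ephb2b (-0.1078 to 0.2057) and plxna2 (-0.0073 to 0.1052). The causes were not tested.

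With the replicate block, 10 guidance genes were higher and 2 lower, and the 9 called genes stayed called. The share of all genes called in that fit is not given, so these counts are not set against other genes. Same-numbered arrays deviated together with r = 0.0935 across 24454 probes.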
